A study of Rattus norvegicus with 4 samples.

Results

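Type I interferon response genes were followed through rat blood cells measured by droplet single-cell RNA-seq. The set holds 30 genes, named by symbol as widely used members of the type I interferon response. This rule uses no measured value, but the members were chosen with earlier results of these data known. All 30 were among the 25340 genes listed for each library. The 40 rats of the study formed 4 groups of 10, and each group gave 1 blood library. Sham stands for the sham group and SCI for untreated traumatic spinal cord injury made by Allen's method, a weight drop. MSC-i.t rats were injured and received 10000000 umbilical cord mesenchymal stromal cells per kg intrathecally, into the spinal fluid, and MSC-i.v rats were injured and received 30000000 of these cells per kg into a vein. Both treatments were given 72 hours and 7 days after injury, so route and dose differ together. The submitters' design text words the injury as common to all 40 rats, Sham included. Strain, age and sex of the rats, the number of rats pooled in a library and the time of the blood draw are not given in the labels, and the SCI library carries another time tag than the other 3 in the names of the deposited data. With 1 library per group there is no replicate, no test was made, and every ratio compares a pair of libraries and not conditions.

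Type I interferons are secreted proteins, made when a cell senses foreign or misplaced nucleic acid. They bind the receptor chains Ifnar1 and Ifnar2, whose kinases Jak1 and Tyk2 phosphorylate Stat2. Stat2 and Irf9 are subunits of the complex ISGF3, which binds the interferon-stimulated response element in the promoters of the response genes. The products include RNA-binding and antiviral effectors (Ifit, Oas and Mx families), the ubiquitin-like modifier Isg15 with its protease Usp18, and the factors and sensors of the pathway itself, such as Irf7, a transcription factor that drives further interferon production. In blood, monocytes and lymphocytes all carry the receptor, and the response genes are known as a readout of interferon exposure.

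Cells were assigned by marker genes, of which none is among the 30. Across the 4 libraries the gates held between 5607 and 8579 T cells, 895 and 2793 B cells, 140 and 277 NK cells, 89 and 462 classical monocytes (Fcnb, Fn1, Vcan), and 140 and 464 nonclassical monocytes (Fcgr3a with Csf1r). Markers not used in the gates were checked in each class. The summed level of the T cell check genes in T cells was 1079 to 1197 CPM (unique molecular identifiers, UMIs, of a gene per 1000000 UMIs of that class and library), that of the B cell check genes in B cells 1891 to 2102 CPM, that of the NK check genes in NK cells 3570 to 4443 CPM, and that of the monocyte check genes 42315 to 47894 CPM in classical and 14947 to 18563 CPM in nonclassical monocytes. The T cell check genes were also at 907 to 1005 CPM in NK cells, so they do not separate these classes, and the NK check genes were at 27.4 to 50.4 CPM in T cells. The monocyte sum was mostly Lyz2, at 44893 CPM in Sham classical and 11922 CPM in Sham nonclassical monocytes. Lyz2 was also at 74.7 to 511 CPM in T, B and NK cells. Ccr2, of the same list, was at only 2.49 to 3.30 CPM in classical monocytes. Library totals were 63133881 to 91124523 UMIs. Ratios over Sham were spread most widely for SCI. Across genes, log2 ratios had an SD of 0.60 to 0.66 for SCI over Sham in the 5 classes, against 0.38 to 0.51 for MSC-i.t over Sham and 0.34 to 0.47 for MSC-i.v over Sham. Counting error adds to this SD. SCI had the fewest UMIs of the libraries in B cells, NK cells and both monocyte types, but not in T cells. The part of depth in the SD was not tested. Between 20 and 32 gated barcodes were shared by each pair of libraries, 0.244% to 0.403% of the smaller one.

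The promoters of the genes were searched for the core of the element that ISGF3 reads. Of the 30 genes, 21 had an entry in the RefSeq promoter table of build GRCr8 (250 bases before to 50 after the start site). The element was searched as GAAANNGAAA on both strands, 10 letters with overlapping matches counted. It was found in 12 of the 21 promoters, 57.1%, against 3.92% of the 33469 promoters in the table. Windows of 60 bases are shown for 5 genes because these genes recur in the results below. They read 5′ to 3′ on the gene's strand, with every matched base in capitals.
Irf7 (chr1:205800058-205800117, minus strand): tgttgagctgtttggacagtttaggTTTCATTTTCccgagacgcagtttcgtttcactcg
Ifit3 (chr1:241527257-241527316, plus strand): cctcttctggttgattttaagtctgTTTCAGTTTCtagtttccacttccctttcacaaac
Oas1a (chr12:41330406-41330465, plus strand): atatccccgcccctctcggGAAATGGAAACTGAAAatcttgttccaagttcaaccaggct
Bst2 (chr16:18255058-18255117, minus strand): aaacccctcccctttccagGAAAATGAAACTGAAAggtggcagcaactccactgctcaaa
Parp14 (chr11:78408033-78408092, plus strand): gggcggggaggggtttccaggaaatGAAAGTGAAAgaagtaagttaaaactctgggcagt
In Oas1a and Bst2 a pair of matches overlaps, which gives the longer run of capitals, and in Irf7 and Ifit3 the match lies on the opposite strand. The 9 genes with a table entry and no match were Mx1, Oasl, Slfn2, Ifi35, Herc6, Trim25, Parp9, Irf9 and Stat2. The genes without an entry were Ifit1, Ifit2, Mx2, Rtp4, Isg15, Usp18, Ddx58, Dhx58 and Zbp1. A match describes the letters and is not evidence of binding in these cells.

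As a fraction of the UMIs of each class, the level of these genes was highest in nonclassical monocytes. CPM does not give the amount of RNA per cell. The summed level of the 30 was 3906 CPM in Sham, 4795 in SCI, 2614 in MSC-i.v and 3352 in MSC-i.t nonclassical monocytes. With the libraries ordered as Sham, SCI, then intrathecal and intravenous treatment, as in every later run of values, classical monocytes held 1630, 2663, 1709 and 1536 CPM and T cells 1027, 1032, 937 and 1112 CPM. In B cells the sum was 1699, 1926, 1565 and 1517 CPM, and in NK cells 1472, 1752, 1310 and 1392 CPM. Of the 30 genes, 15 had their highest level of the 5 classes in nonclassical monocytes in all 4 libraries, 2 (Ifi44l and Trim25) had it in B cells in all 4, and for the other 13 the highest class differed between libraries. The share of all genes with the same order was not taken, so these counts are not read as particular to the members. SCI had the highest sum in B cells, NK cells and both monocyte types, while in T cells MSC-i.v had it.

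**Figure D1:**
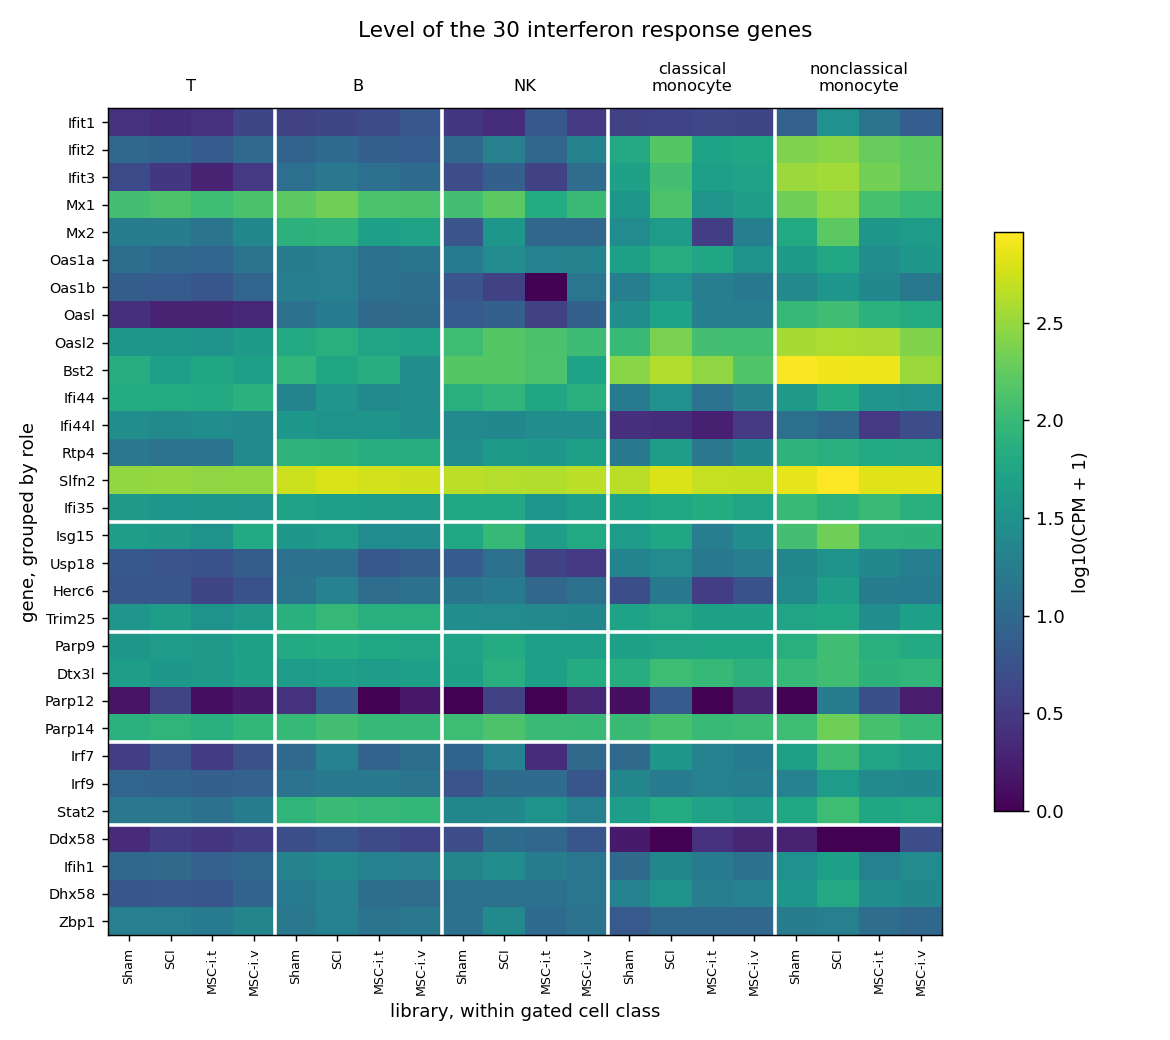
Level of each of the 30 genes (rows, grouped by role from effectors at the top to nucleic acid sensors at the bottom) in each library (columns) of the 5 gated classes, as log10(CPM + 1) in colour. The nonclassical monocyte columns hold the highest values for 15 genes in all 4 libraries, and the B cell columns for Ifi44l and Trim25. The same order was not counted over all genes.

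The 6 members with the most UMIs in gated leukocytes, a count that is not scaled for gene length, were Slfn2, Mx1, Parp14, Bst2, Ifi44 and Oasl2. Slfn2, a schlafen gene needed for T cell quiescence, was at 299.6, 309.6, 292.6 and 304.9 CPM in T cells, at 544.8, 623.9, 568.7 and 566.8 CPM in B cells, and at 467.6, 427.8, 414.9 and 467.8 CPM in NK cells. In monocytes it was at 454.2, 642, 506.7 and 491.5 CPM in the classical and 704.7, 916.4, 652.2 and 667.1 CPM in the nonclassical type. It was thus expressed throughout, with SCI highest in both monocyte types and in B cells. Parp14, an interferon-induced mono-ADP-ribosyltransferase, ranged over libraries from 72.7 to 91.7 CPM in T cells, 94.6 to 119.7 in B cells, 97.6 to 136.4 in NK cells, 102.2 to 126.7 in classical and 98.5 to 201.8 CPM in nonclassical monocytes. SCI had the top of that range in every class but T cells, where MSC-i.v had it. Ifi44, an interferon-induced protein of the cytoplasm, stood between 56.3 and 89 CPM in T and NK cells and between 12.4 and 65.6 CPM in B cells and monocytes. Oasl2, of the oligoadenylate synthetase-like family, was at 32.2 to 40.3 CPM in T cells, 49.8 to 71.3 in B cells, 107 to 152.2 in NK cells, 101.4 to 230 in classical and 251.6 to 395.1 CPM in nonclassical monocytes.

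The comparison of SCI with Sham asks how the injury relates to the response genes in circulating cells. A gene was counted in a class when it had at least 40 UMIs over the 4 libraries, and was called higher or lower when the ratio of its CPM was at least 1.5-fold. In classical monocytes 15 of 25 counted members (60%) were higher in SCI and 0 were lower, while over all 7131 counted genes 17.0% were higher and 11.4% lower. The median log2 ratio of the members was 0.67, against 0.07 over all genes. In nonclassical monocytes 12 of 27 members (44.4%) were higher and 0 lower, beside 19.8% and 6.69% of all genes, with a median of 0.56 against 0.13. Of 25 members counted in both monocyte types, 5 were higher in both (Mx2, Irf7, Ifi44, Dhx58 and Ifih1), where 7.39% of all genes were.

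Among the effectors in monocytes, Mx1, an interferon-induced GTPase that blocks virus replication, was at 35.9, 136.8, 33.8 and 44 CPM in classical monocytes. SCI lay above the other 3 libraries, whose intervals for counting error overlapped each other, and the log2 ratio of SCI over Sham was 1.93 (95% interval 1.52 to 2.34). In nonclassical monocytes Mx1 was at 200, 285.8, 124.5 and 99.8 CPM in the same order. Mx2, its relative, was at 26, 42.2, 2.47 and 17.8 CPM in classical monocytes and at 62.3, 161.4, 35.9 and 41.1 CPM in nonclassical monocytes. The Mx2 ratio of SCI over Sham was 1.37 (0.91 to 1.85) in nonclassical monocytes, and its classical MSC-i.t value rests on 3 UMIs.

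The Ifit genes, whose products bind viral RNA that lacks the host's cap methylation, split by monocyte type. Ifit2 was at 60.3, 151.4, 51.1 and 54.3 CPM and Ifit3 at 48.5, 119.4, 46.1 and 49.7 CPM in classical monocytes, with log2 ratios of SCI over Sham of 1.33 (0.97 to 1.68) and 1.30 (0.89 to 1.70). In nonclassical monocytes Ifit2 stood at 245.3, 274.1, 186.8 and 161.9 CPM and Ifit3 at 332.1, 351.4, 219.5 and 168.6 CPM. There the SCI ratio was 0.16 for Ifit2 and 0.08 for Ifit3, both with intervals across 0, on a Sham level already above that of SCI classical monocytes. Ifit1 had 8, 18, 12 and 10 UMIs in nonclassical monocytes (7.55, 30.3, 12.7 and 6.75 CPM) and was too rare to count in classical ones. Its ratio of 2.0 (0.73 to 3.41) was the highest of the class on few molecules.

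The Oas family holds the synthetases whose product activates RNase L, and their relatives. Oasl2 was at 101.4, 230, 117 and 115.1 CPM in classical monocytes (log2 ratio 1.18, 0.90 to 1.46) and Oasl at 28.2, 51, 18.1 and 18.1 CPM (0.85, 0.24 to 1.43). Oas1b was past 1.5-fold in classical monocytes too, at 0.79 with an interval of -0.01 to 1.54, and Oas1a just short of it, at 0.54 (0.03 to 1.02). In nonclassical monocytes the 4 Oas genes had log2 ratios between 0.06 and 0.58 and none was called. Rtp4, a Golgi protein with interferon-induced expression, was at 14.8, 43.7, 14 and 22.4 CPM in classical monocytes, where its ratio was 1.56 (0.85 to 2.26). In nonclassical monocytes it was at 84, 72.3, 64.4 and 60 CPM, among the lowest ratios there (-0.22, interval -0.78 to 0.32). Ifi35, a cytosolic protein, was at 51, 58.2, 66.7 and 52.2 CPM in classical and 98.1, 79, 104.5 and 74.9 CPM in nonclassical monocytes, with ratios of 0.19 and -0.31 whose intervals spanned 0.

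Bst2, or tetherin, which holds budding virus at the cell surface, was at 275.4, 422.2, 298.3 and 144.2 CPM in classical monocytes, a log2 ratio of SCI over Sham of 0.62 (0.42 to 0.81). In nonclassical monocytes it was at 879.3, 788.6, 777.8 and 331.2 CPM. The 3 libraries other than MSC-i.v were close there, and MSC-i.v was lowest in both types.

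In the Isg15 system the monocyte types differed again in size. Isg15 was at 117.9, 201.8, 83.4 and 80.9 CPM in nonclassical monocytes, a ratio of 0.77 (0.40 to 1.15), and at 40.8, 55.3, 17.3 and 28.8 CPM in classical monocytes, where the ratio was 0.44 (-0.12 to 0.97). Herc6, the ligase that attaches Isg15 in rodents, was at 24.5, 43.7, 16.9 and 16.2 CPM in nonclassical monocytes, past the fold at 0.83 but with an interval of -0.01 to 1.68. Usp18, which removes Isg15 and damps receptor signalling, had ratios of 0.35 in classical and 0.56 in nonclassical monocytes, and Trim25, a ubiquitin ligase of the Rig-I pathway, 0.20 and 0.16, all with intervals across 0. Of the ADP-ribosyltransferase group, Parp9 and Parp14 were called in nonclassical monocytes at 0.59 (0.10 to 1.08) and 0.90 (0.51 to 1.28). Dtx3l, the ligase partner of Parp9, was called in classical monocytes at 0.67 (0.28 to 1.06), where Parp9 was at 0.09.

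All 3 transcription factors were called in nonclassical monocytes. Irf7 was at 47.2, 107.6, 52.8 and 41.1 CPM, Irf9 at 19.8, 42, 25.3 and 22.9 CPM, and Stat2 at 59.4, 109.3, 55.9 and 61.4 CPM. SCI alone stood high for each, with log2 ratios over Sham of 1.19 (0.63 to 1.75), 1.09 (0.19 to 1.99) and 0.88 (0.36 to 1.40). In classical monocytes Irf7 was at 9.63, 36.4, 18.9 and 15.6 CPM (1.92, 1.09 to 2.73) and Irf9 at 21.8, 16, 18.9 and 17.8 CPM (-0.45, -1.52 to 0.48), the lowest ratio of that class. The sensor genes that could be counted had ratios above 0. Dhx58, the regulator Lgp2, was at 0.76 (-0.02 to 1.49) in classical and 0.79 (0.09 to 1.5) in nonclassical monocytes, and Ifih1, the long-RNA sensor Mda5, at 1.18 (0.18 to 2.12) and 0.59 (-0.21 to 1.37). Zbp1, a sensor of Z-form nucleic acid, was at 0.60 and 0.12 on 6 and 11 SCI UMIs, with intervals across 0. Ddx58, or Rig-I, had at most 6 UMIs in any library of either monocyte type and was not counted.

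Other measurements moved with the monocyte values. The SCI classical gate held only 89 cells and its level of Csf1r was 860 CPM against 597 in Sham, and of Spn 457 against 219. Cebpb, a myeloid transcription factor, was higher in every SCI class than in Sham, at 1468 against 62.6 CPM in classical and 2482 against 137.7 CPM in nonclassical monocytes, 6.40 against 0.921 in T, 44.4 against 2.72 in B and 23 against 3.01 in NK cells. The summed level of the 5 neutrophil markers was 1023 CPM in SCI and 2641 in Sham classical monocytes, and that of the 6 platelet markers was 2193 and 1843 CPM. Leaving out barcodes with platelet markers, or subtracting the free RNA of each library, left the monocyte medians at the same sign, and asking for all 3 classical markers lowered the classical median from 0.67 to 0.49. The part of monocyte state, cell number and the time tag of the SCI library in these differences was not tested, and the labels do not allow group and library to be told apart.

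**Figure D2:**
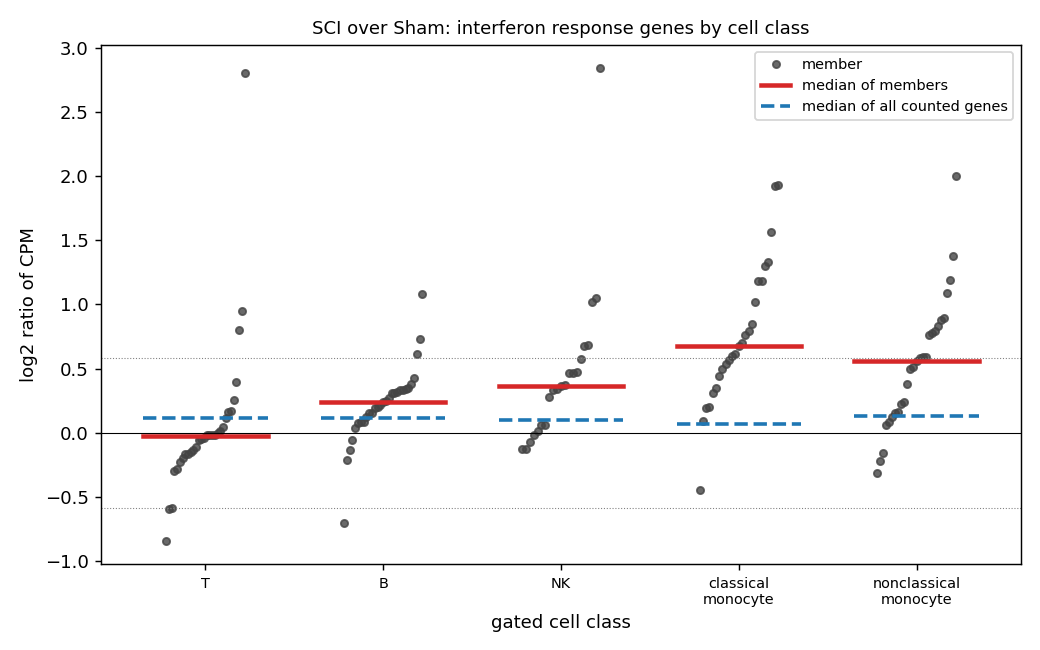
Log2 ratio of CPM of SCI over Sham for each counted gene (points) in the 5 classes, with the median of the members (solid line) and of all counted genes (dashed line); dotted lines mark 1.5-fold. The member medians are 0.67 and 0.56 in the monocyte types and -0.03 in T cells, while the medians of all genes stay between 0.07 and 0.13.

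Lymphocytes differed less. In T cells all 30 members were counted, and 3 (10%) were higher and 2 (6.67%) lower in SCI, near the 12.3% and 5.72% of all genes, with a median of -0.03 against 0.11. In B cells 3 of 29 (10.3%) were higher and 1 (3.45%) lower, beside 14.1% and 4.82% of all genes, and the median was 0.24. In NK cells 5 of 21 (23.8%) were higher and 0 lower, beside 17.0% and 7.37%, and the median was 0.36. The T and B cell counts were thus near or below the share of all genes past the fold, and the NK count rests on 140 SCI cells. The 3 basophil markers in the NK gate summed to 775 CPM in Sham and 28.7 CPM in SCI, and without barcodes holding any of them the count was again 5 higher and 0 lower, with a median of 0.44. The 5 plasma cell markers in the B gate summed to 372, 598, 328 and 278 CPM, and without barcodes of 2 or more of them 3 members were higher and 0 lower, with a median of 0.32. The B cell median was 0.03 once free RNA was subtracted.

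Irf7 was called higher in each of the 4 classes where it could be counted. It was at 2.54, 4.91, 2.34 and 4.41 CPM in T cells and 9.18, 19.5, 7.82 and 10.6 CPM in B cells, with ratios of SCI over Sham of 0.95 (0.56 to 1.35) and 1.08 (0.55 to 1.63). The free RNA of the SCI library, taken from barcodes under 100 UMIs, also held more Irf7, 14.3 CPM against 5.97 in Sham. With free RNA subtracted and under the other alternatives the Irf7 ratio stayed between 0.84 and 1.10 in T cells and between 0.95 and 1.30 in B cells. Parp12, a stress-granule ADP-ribosyltransferase, had 14, 112, 12 and 23 UMIs in T cells (0.44, 3.10, 0.27 and 0.62 CPM), a ratio of 2.80 (2.0 to 3.72). In B cells and nonclassical monocytes its counts were too low to be called, with 10, 22, 0 and 4 UMIs and 0, 10, 4 and 1 UMIs, and SCI again had the most. Ddx58 was at 1.33, 2.33, 1.95 and 2.52 CPM in T cells, with Sham lowest (0.80, 0.25 to 1.37).

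Mx1 was at 119.3, 133.8, 108.4 and 130 CPM in T cells and at 164.8, 209.1, 130.3 and 128.7 CPM in B cells, and SCI was highest in both without passing the fold over Sham.

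Few members were past 1.5-fold downward in SCI lymphocytes, although only 10 of 30 had T cell ratios above 0. Bst2 was at 69.6, 46.1, 56.4 and 46.1 CPM in T cells (ratio -0.59, -0.69 to -0.50) and at 87.4, 53.8, 68.4 and 27.8 CPM in B cells (-0.70, -0.95 to -0.46). Platelet-gated barcodes held Bst2 at 137.6 to 459.8 CPM, and the 6 platelet markers in T cells summed to 180, 62.7, 129 and 129 CPM. The platelet gate was mixed. Plasmacytoid dendritic cell markers summed to 333, 53.5, 478 and 357 CPM there, and the monocyte check genes to 5777, 2148, 1628 and 7461 CPM. The source of Bst2 in that gate was not tested. Over all alternatives, that without barcodes of 2 or more platelet markers included, the Bst2 ratio lay between -0.71 and -0.54 in T cells and between -0.82 and -0.60 in B cells. Ifit3 in T cells was at 3.62, 2.02, 0.91 and 2.11 CPM (-0.84, -1.28 to -0.40), and without the platelet-marked barcodes its ratio was -0.15. Oasl was at 1.49, 1, 1 and 1.19 CPM in T cells, with an interval across 0. In B cells Ifi44 was at 20.6, 34.1, 24.3 and 27.3 CPM (0.73, 0.35 to 1.11) and Herc6 at 12.8, 19.5, 10.4 and 12 CPM (0.61, 0.12 to 1.10), while Ifi44l and Ifi35 had ratios of -0.21 and -0.13 with intervals across 0.

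In NK cells counts were small. Mx2 had 5, 25, 6 and 8 UMIs (5.02, 35.9, 8.44 and 8.39 CPM), a ratio of 2.84 (1.43 to 4.58). Ifit2 at 1.05 and Zbp1 at 1.02 had intervals across 0. Isg15 was at 59.2, 94.8, 43.6 and 61.9 CPM (0.68, 0.15 to 1.21) and Mx1 at 117.4, 162.2, 66.1 and 102.8 CPM (0.47, 0.08 to 0.85). The lowest ratios, -0.13 for Slfn2, -0.13 for Ifi44l and -0.07 for Trim25, were not distinguishable from 0 at this depth.

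**Figure D3:**
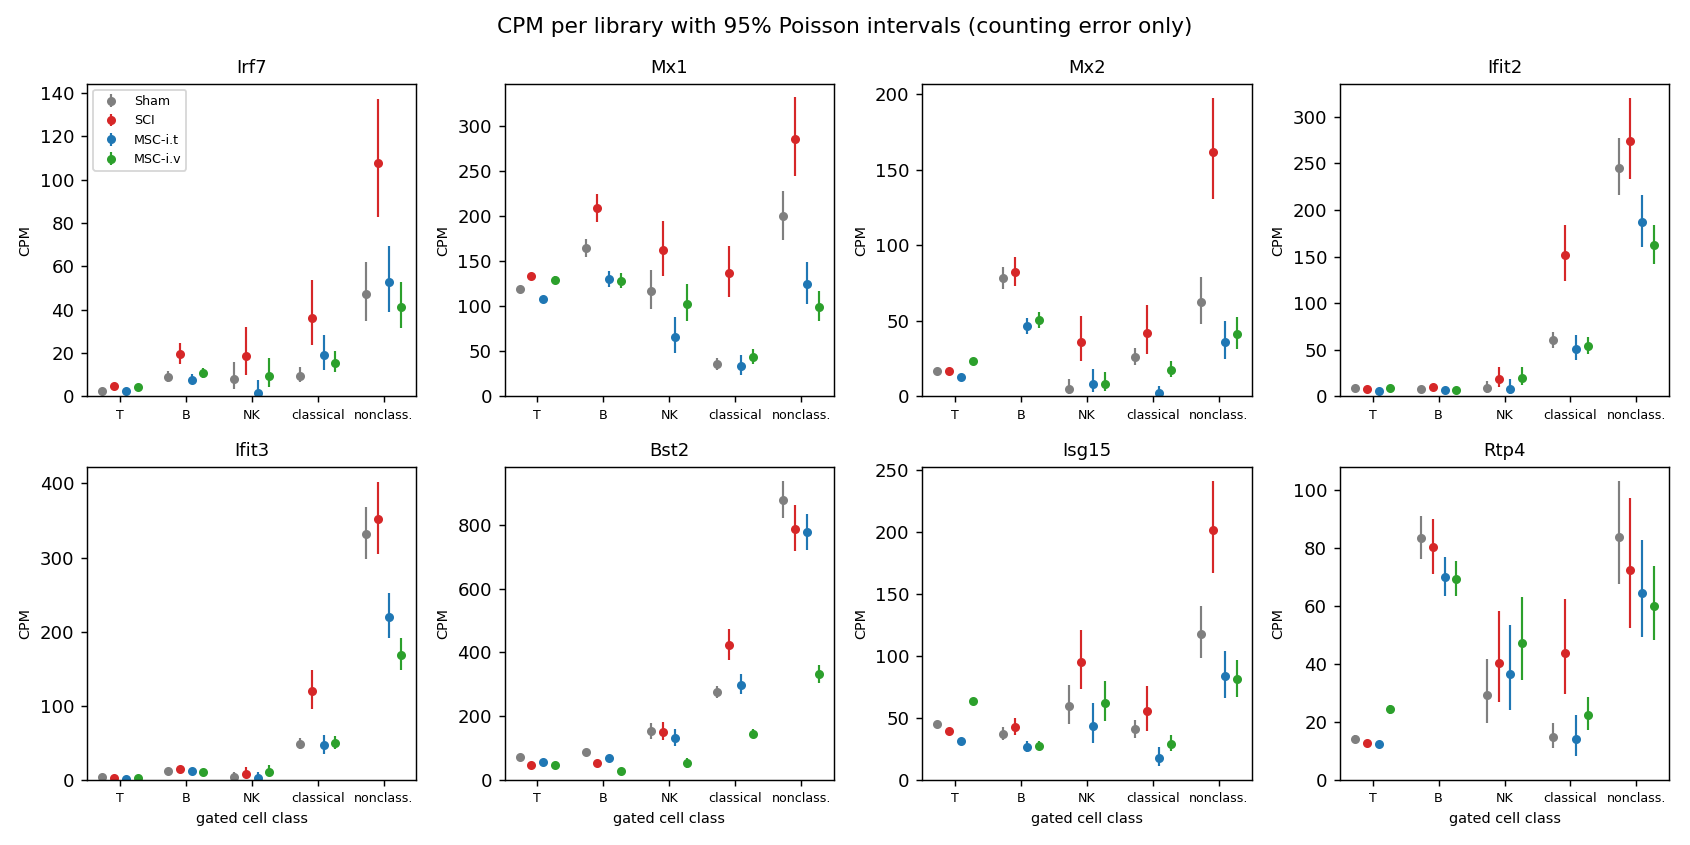
CPM of 8 genes in the 5 classes, one panel per gene with its own linear axis from 0; points are the 4 libraries (colours) and bars are 95% Poisson intervals for counting error only. SCI is the top library for Irf7 and Mx1 in both monocyte types, MSC-i.v is the lowest for Bst2 in B cells, NK cells and monocytes, and MSC-i.v is the top library for Isg15 and Rtp4 in T cells.

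The comparison of each treated library with SCI asks how the cell therapy by either route relates to the response after injury. Both use the SCI library, as does the comparison with Sham, so a gene high in SCI alone appears in all of them and the values are not independent. In classical monocytes 13 of 25 members (52%) were lower in MSC-i.t and 0 higher, beside 17.9% and 12.8% of all genes, and 17 of 25 (68%) were lower in MSC-i.v and 0 higher, beside 18.0% and 8.83%. In nonclassical monocytes 18 of 27 (66.7%) were lower after intrathecal and 22 of 27 (81.5%) after intravenous treatment, with 0 higher in either. All genes were lower in 21.0% and 19.2% of cases and higher in 7.14% and 5.91%. The member medians were -0.82 and -0.90 in classical and -0.73 and -0.87 in nonclassical monocytes. Of the 25 members counted in both monocyte types, 8 were lower in both in MSC-i.t, where 7.65% of all genes were, and 16 in MSC-i.v, where 7.46% were.

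With Sham as the reference the treated libraries lay near it in classical monocytes, with medians of -0.03 for MSC-i.t and 0.04 for MSC-i.v. In nonclassical monocytes the medians were -0.25 and -0.39, against all-gene medians of 0.00 and -0.01. Members below Sham there in MSC-i.v included Bst2 (879.3 in Sham, 331.2 in MSC-i.v), Mx1 (200 and 99.8 CPM) and Ifit3 (332.1 and 168.6 CPM). The neutrophil markers in classical monocytes summed to 2641 CPM in Sham, 1089 in MSC-i.v and 2696 in MSC-i.t.

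The lowest ratios against SCI were mostly those of effectors. In classical monocytes they were Mx2 at -4.09 (-6.45 to -2.40, on 3 UMIs), Mx1 at -2.02 (-2.58 to -1.47) and Isg15 at -1.68 (-2.52 to -0.87) in MSC-i.t. In MSC-i.v they were Mx1 at -1.64 (-2.03 to -1.23), Bst2 at -1.55 (-1.77 to -1.33) and Oasl at -1.49 (-2.14 to -0.83). In nonclassical monocytes Mx2 at -2.17 (-2.78 to -1.59), Herc6 at -1.37 (-2.37 to -0.42) and Isg15 at -1.28 (-1.70 to -0.85) were lowest in MSC-i.t. For MSC-i.v the lowest were Ifit1 at -2.17 (-3.44 to -0.97), Mx2 at -1.97 (-2.46 to -1.49) and Mx1 at -1.52 (-1.85 to -1.19). The 3 highest ratios of each monocyte type all had intervals across 0. In classical monocytes they were Irf9 at 0.24, Ifi35 at 0.20 and Zbp1 at 0.05 in MSC-i.t, and Irf9 at 0.15, Parp9 at 0.03 and Zbp1 at -0.04 in MSC-i.v. In nonclassical monocytes they were Ifi35 at 0.40, Bst2 at -0.02 and Oasl2 at -0.02 in MSC-i.t, and Ifi35 at -0.08, Rtp4 at -0.27 and Dtx3l at -0.34 in MSC-i.v.

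Bst2 differed between the treated libraries. In nonclassical monocytes it was -0.02 (-0.19 to 0.15) for MSC-i.t over SCI, or 0.16 with free RNA subtracted, and -1.25 (-1.44 to -1.07) for MSC-i.v over SCI. In NK cells it was at 152.5, 150.7, 130.8 and 51.4 CPM, a ratio of -1.55 (-2.07 to -1.05) for MSC-i.v. In B cells MSC-i.t lay above SCI at 0.35 (0.09 to 0.60) and MSC-i.v below it at -0.95 (-1.25 to -0.66), and the first of these was 0.01 with 3 gate markers. The dose, the route and the library all differ between these samples, so their parts cannot be told apart.

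**Figure D4:**
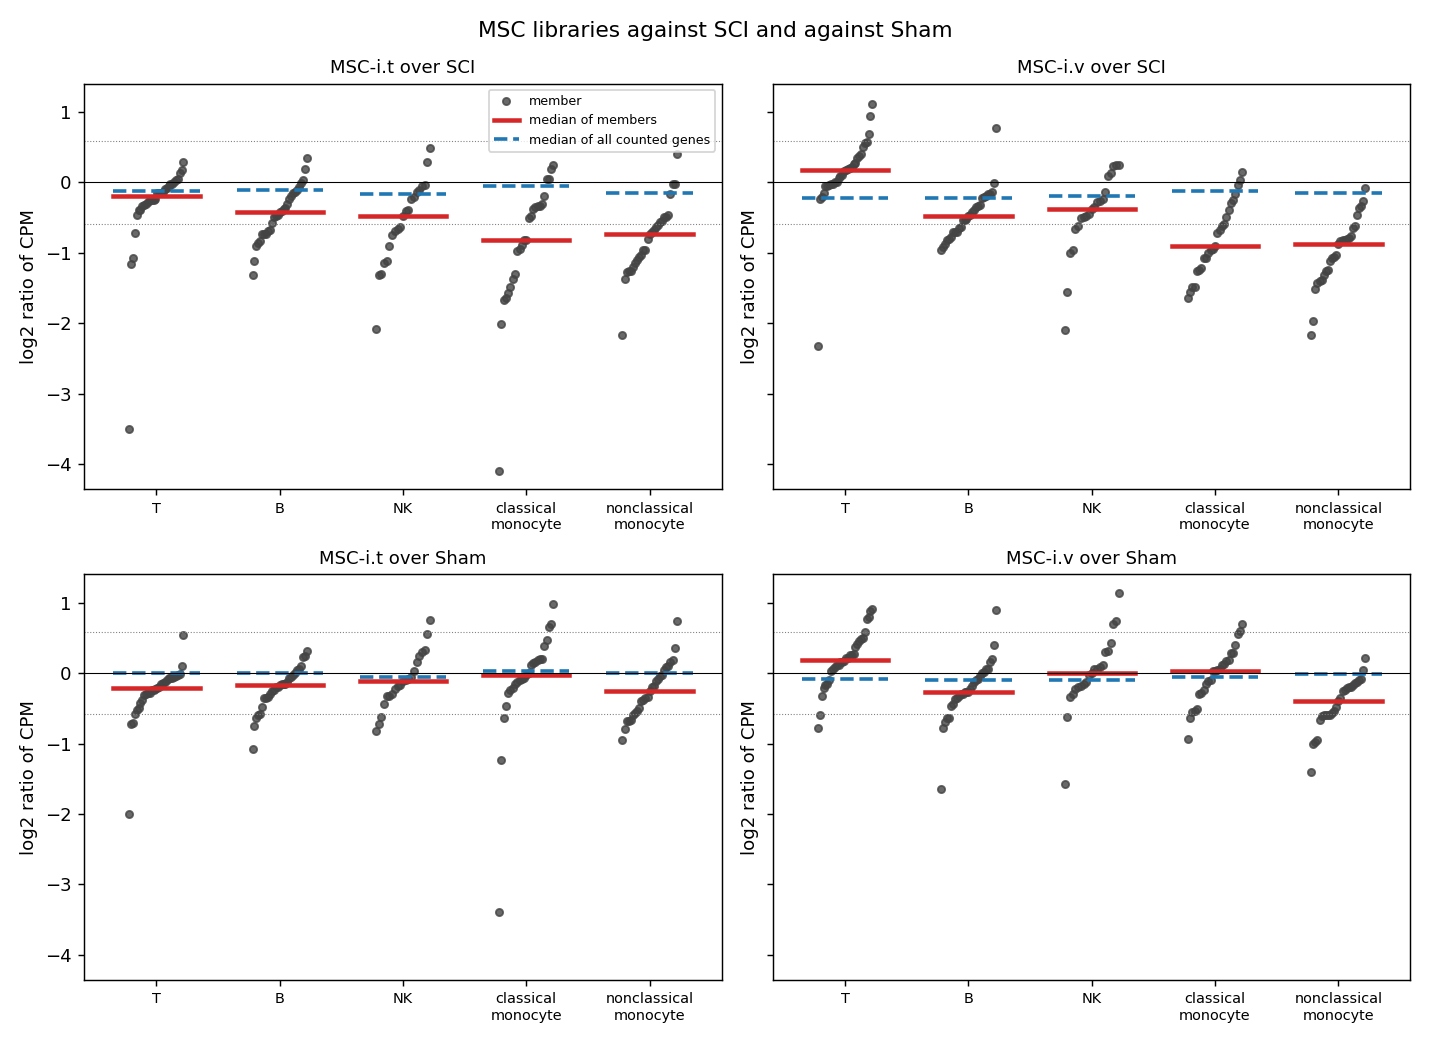
Log2 ratio of CPM of the MSC-i.t (left) and MSC-i.v (right) libraries over SCI (top) and over Sham (bottom) for each counted gene in the 5 classes, with medians of the members (solid) and of all counted genes (dashed); dotted lines mark 1.5-fold. Against SCI the member medians in monocytes lie between -0.73 and -0.90, and against Sham between -0.39 and 0.04.

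B and NK cell counts of lower members were above the share of all genes, with smaller margins than in monocytes. In B cells 10 of 29 members (34.5%) were lower and 0 higher in MSC-i.t, beside 15.1% and 4.16% of all genes, and 11 (37.9%) were lower and 1 (3.45%) higher in MSC-i.v, beside 17.8% and 3.26%. Relative to the median of all genes only 4 were lower in MSC-i.v, since that median was itself -0.22. Without the barcodes of 2 or more plasma cell markers the counts were 10 after intrathecal and 14 after intravenous treatment. The 3 lowest B cell ratios were Irf7 at -1.32 (-1.88 to -0.76), Usp18 at -1.12 (-1.82 to -0.43) and Herc6 at -0.90 (-1.42 to -0.39) in MSC-i.t. Besides Bst2 the lowest in MSC-i.v were Dhx58 at -0.91 (-1.40 to -0.42) and Irf7 at -0.88 (-1.36 to -0.39). Ifit1 had the highest B cell ratio in MSC-i.v, 0.77, with an interval across 0, followed by Dtx3l near 0 and Slfn2 at -0.14 (-0.21 to -0.06), which was 0.11 once free RNA was subtracted. Besides Bst2 the highest in MSC-i.t were Ifit1 at 0.19 and Ifi44l at 0.04, again across 0. In NK cells 10 of 21 (47.6%) were lower after intrathecal and 6 (28.6%) after intravenous treatment with 0 higher in either, beside 20.8% and 22.0% lower and 6.49% and 5.50% higher over all genes. The intravenous NK count is near that share, 6 were lower in MSC-i.t relative to the median of all genes, and with Sham in place of SCI the NK median for MSC-i.v was 0.00087. Mx2 at -2.09 and -2.10, Mx1 at -1.30 (-1.82 to -0.79) and Zbp1 at -1.31 (-2.82 to 0.03) in MSC-i.t and Ifih1 at -1.0 (-2.14 to 0.09) in MSC-i.v were among the lowest, and Stat2, Ifi44l, Dhx58 and Rtp4, the highest, had intervals across 0.

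T cells did not share the pattern in the counts of members past the fold. In MSC-i.t 4 of 30 members (13.3%) were lower and 0 higher, beside 13.7% and 3.07% of all genes. These 4 were Parp12 at -3.51, Ifit3 at -1.16, Irf7 at -1.07 and Herc6 at -0.72, and Ifit3 had 40 UMIs in MSC-i.t and a ratio of -3.40 once free RNA was subtracted. The highest were Bst2 at 0.29, Ifit1 at 0.17 and Ifi44l at 0.13. In MSC-i.v 1 (3.33%) was lower and 3 (10%) higher, beside 15.2% and 4.85% of all genes, with a median of 0.17 against -0.22. With ratios centred on the median of all genes 8 were higher, but the share of all genes after that centring was not taken. The lowest were Parp12 at -2.32, Trim25 at -0.24, which was -0.02 after that centring, and Herc6 at -0.21. Isg15 was at 44.9, 39.2, 31.4 and 63.3 CPM in T cells, and MSC-i.v stood above the other 3 (0.69 over SCI, 0.60 to 0.79). Rtp4 was at 14.2, 12.6, 12.4 and 24.2 CPM (0.94, 0.78 to 1.11). Ifit1 was at 1.72, 1.47, 1.66 and 3.17 CPM (1.11, 0.63 to 1.60), and its ratio was 0.06 once free RNA was subtracted and 0.45 without the 5% deepest barcodes, while that of Isg15 was 0.84. Taking all hemoglobin of a class as free RNA gave an estimate of 24.3% of T cell UMIs in MSC-i.v and 9.20% in SCI. The same estimate was 108% in SCI and 188.5% in MSC-i.t platelet-gated barcodes, so it can overstate free RNA. Every value given with free RNA subtracted rests on it.

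In MSC-i.v Isg15 and Rtp4 were highest in both the CD4 and the CD8 gate, but by less in CD8 T cells, where Isg15 stayed under 1.5-fold over SCI. Isg15 was at 55.3, 48.9, 41.2 and 81.2 CPM in CD4 T cells and at 44.4, 34.5, 27.1 and 49 CPM in CD8 T cells. Rtp4 was at 16.3, 15.7, 15.3 and 31.5 CPM in CD4 and 13, 11.6, 12 and 18.9 CPM in CD8 T cells. Of the members counted 6 of 25 were past the fold upward in CD4 and 2 of 30 in CD8 T cells. The share of all genes is not set beside these counts, so no excess is read from them. The thinned share of cells with 3 or more members was 30.4% in MSC-i.v and 29.3% in SCI CD4 T cells, and 21.4% and 21.8% in CD8 T cells, beside 27.4% and 23.4% of all T cells. The CD4 and CD8 gates held only 687 and 2756 of 8183 thinned T cells in MSC-i.v, and 757 and 1907 of 5519 in SCI. Most T cells were thus in neither gate, and the shares of the gates do not describe them. Markers of other cells were also higher in MSC-i.v than in SCI T cells. Csf1r was at 6.87 against 3.30 CPM, the 5 neutrophil markers summed to 164 against 16.1 CPM and the 6 platelet markers to 129 against 62.7 CPM. The Sham T cells had 210 and 180 CPM of the neutrophil and platelet markers, above MSC-i.v, with Isg15 at 44.9 CPM.

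Other genes of the pathway were counted from lists. No ligand gene (Ifna2, Ifna4, Ifna5, Ifnb1, Ifnk, Ifne and Ifng in the files) reached 40 UMIs in any class, so no ratio is given for them at this depth. Of the 8 receptors and kinases 2 (25%) were higher and 0 lower in SCI classical monocytes, beside 17.0% and 11.4% of all genes. The receptor chain Ifnar1 was among the 2, at 0.65 (0.34 to 0.95). Of the 13 sensor adaptors in the files, 1 of 10 counted was higher and 1 lower in SCI classical and 2 of 9 higher in SCI nonclassical monocytes, where Tlr8, a receptor for single-stranded RNA, was at 0.68 in both types. Among the other interferon-induced genes 8 of 25 (32%) were higher and 3 (12%) lower in classical monocytes, beside 17.0% and 11.4% of all genes, and 6 of 24 (25%) higher and 1 lower in nonclassical monocytes, beside 19.8% and 6.69%, with medians of 0.24 and 0.44. The nonclassical counts of both lists are near the share of all genes. Eif2ak2, the double-stranded RNA kinase, was at 0.69 (0.25 to 1.11) and 0.79 (0.26 to 1.32). Ifi27 did not follow, at -0.03 and -0.46. Interferon gamma genes, which answer to the type II ligand, had 6 of 10 (60%) higher and 2 (20%) lower in classical monocytes. The higher ones were led by Igtp at 1.04 and Gbp2 at 1.02, while the lowest ratio of the list was -2.21. In nonclassical monocytes 1 of 9 was higher, with Igtp at 0.02 and Gbp2 at 0.20.

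Erythroid barcodes, in which over 50% of UMIs were hemoglobin, showed differences of the same direction as the monocytes. The 30 members summed to 76, 130, 59.2 and 97.9 CPM there, and 11 reached 40 UMIs. In SCI over Sham 8 of the 11 (72.7%) were higher and 0 lower, beside 22.7% and 21.2% of all genes, with a median of 0.92. For MSC-i.t over SCI 9 (81.8%) were lower and 0 higher, beside 33.8% and 13.5%, with a median of -1.10, and for MSC-i.v 4 (36.4%) were lower and 1 (9.09%) higher, beside 17.5% and 19.7%, with a median of -0.55. Irf7 was at 8.12, 22.1, 6.61 and 8.91 CPM (1.45 in SCI over Sham, 0.98 to 1.91). Isg15 was at 16.6, 31.3, 8.45 and 32.2 CPM (0.92, 0.56 to 1.27), with SCI and MSC-i.v both high. The SCI levels rest on 338 barcodes and 3 to 102 UMIs per gene. The gate markers of T cells summed to 12.7, 26.4, 14.9 and 16.3 CPM in these barcodes and those of nonclassical monocytes to 1.40, 4.61, 1.22 and 1.68 CPM, highest in SCI, while those of classical monocytes were at 8.73, 4.61, 2.82 and 7.22 CPM. The part of leukocyte RNA in these values was not tested.

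The share of cells with several of the genes detected was taken after thinning each cell to 2000 UMIs. In classical monocytes 40.6% of Sham cells (95% Clopper-Pearson interval 35.4% to 45.9%), 67.1% of SCI cells (56.0% to 76.9%), 42.4% of MSC-i.t cells (33.6% to 51.6%) and 43.4% of MSC-i.v cells (38.8% to 48.2%) had 3 or more of the 30. In nonclassical monocytes the shares were 81.5%, 88.5%, 75% and 69.9%, in NK cells 42.9%, 57.6%, 36.2% and 39.4%, and in B cells 38.9%, 44.3%, 37.1% and 38.4%. SCI was highest in each of these classes, and its interval lay clear of the other 3 libraries in classical monocytes only. Cells too shallow to thin were left out, from Sham to MSC-i.v 24, 4, 16 and 13 classical and 10, 9, 7 and 36 nonclassical monocytes, 26, 15, 16 and 31 NK cells, 237, 47, 102 and 1242 B cells and 187, 169, 208 and 396 T cells. Unthinned, the shares were 89.3%, 96.6%, 85.8% and 82.3% in classical and 94.8%, 97.1%, 94.2% and 81.7% in nonclassical monocytes. They were 73.4%, 80.7%, 72.6% and 62.5% in NK cells and 55.7%, 65.6%, 57.4% and 43.1% in B cells, with SCI highest in each class. In NK cells the SCI and Sham shares were close without the 5% deepest barcodes (log2 ratio 0.02). Erythroid barcodes had shares of 0.212%, 0.593%, 0% and 0.276%; the 0 of 697 MSC-i.t barcodes allows up to 0.43%. Unthinned, the erythroid shares were 5.19%, 10.4%, 2.72% and 3.63%. Their median depth was 8248 to 12154.5 UMIs, against 5796 to 8622 in classical monocytes.

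In T cells 23.0% of Sham, 23.4% of SCI, 19.5% of MSC-i.t and 27.4% of MSC-i.v cells had 3 or more members. Before thinning the T cell shares were 66.3%, 73.1%, 67.6% and 55.2%, with MSC-i.v lowest, at a median of 3801 UMIs per T cell against 5121 to 6001 in the other 3. The order of MSC-i.v among the libraries thus depends on thinning, and the CPM values go with the thinned order. T cells with 5 or more members made up 4.63%, 3.91%, 3.10% and 6.83%, and held 19.5%, 16.3%, 13.9% and 24.7% of the member UMIs. These cells were cut from a range: 302 to 572 cells per library had exactly 4 members and 96 to 264 exactly 5. Genes outside the 30 were compared between these cells and the remaining T cells of the same library. Of 26 counted other interferon-induced genes 20, 19, 20 and 21 were at least 1.5-fold higher in the 4 libraries, beside 13.6%, 13.1%, 13.1% and 11.2% of all genes, with medians of 1.12 to 1.24. Of 10 interferon gamma genes 9, 10, 9 and 9 were higher, with medians of 1.25 to 1.41. Eif2ak2 was 2.12 to 2.28 higher on the log2 scale, whereas Rsad2, or viperin, was not higher in any library (-0.94 to -0.04).

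**Figure D5:**
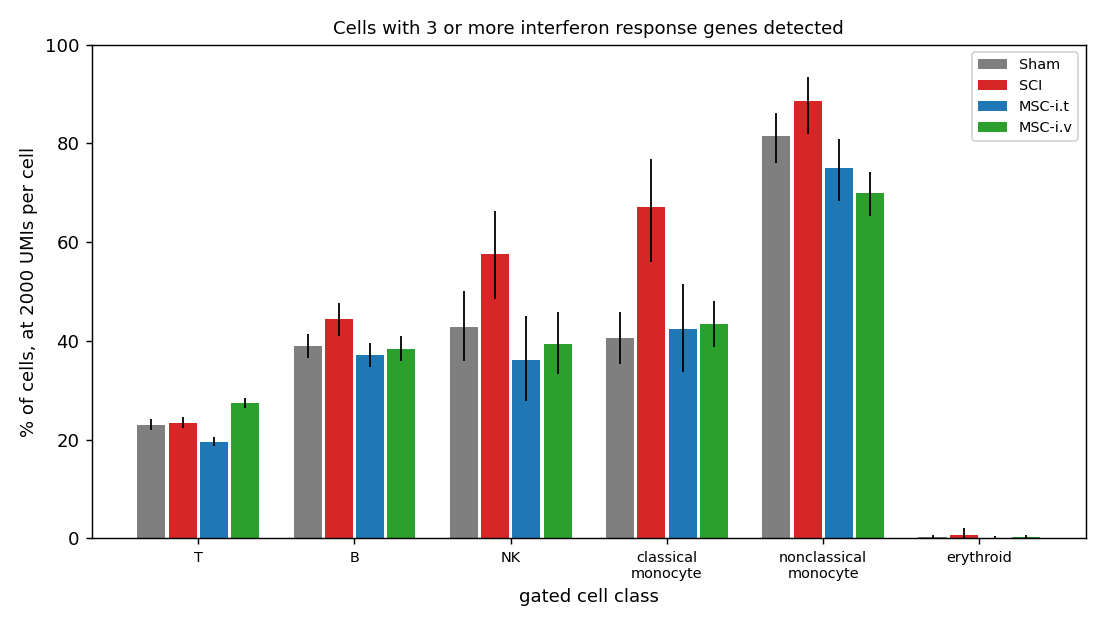
Percentage of cells with 3 or more of the 30 genes detected after thinning each cell to 2000 UMIs, by class and library (colours); bars start at 0 and lines are 95% Clopper-Pearson intervals for counting error only. SCI classical monocytes reach 67.1% against 40.6% to 43.4% in the other libraries, and erythroid barcodes stay under 1%.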

How the data were processed

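Blood single-cell libraries of 4 groups, 1 each, were analysed. Each deposited matrix gives raw counts of UMIs for every gene and each of 6794880 unfiltered barcodes. Per the file headers, Cell Ranger 4 made them, and the submitters' processing notes name mRatBN7.2 as build. The extraction protocol in the labels is for bulk RNA, unlike these files, and was not used here.

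Barcodes with at least 500 UMIs and 200 genes were gated with 2 or more markers of 1 lineage among T, B, NK and monocytes, and at most 50% hemoglobin UMIs. Cd5 was not used here. Barcodes reaching 2 lineages, 186 to 682 per library, were left out as possible doublets; no doublet caller was run. NK cells lack Cd3d, Cd3e and Cd3g, CD4 cells lack Cd8a and Cd8b, and CD8 cells lack Cd4. That other lineages do not exclude a barcode, the hemoglobin limit and the platelet gate (2 platelet markers, no lineage) were set after the data were seen. UMIs were summed per class and library and scaled to CPM. Intervals (95%) are exact Poisson for levels, exact conditional binomial for ratios and Clopper-Pearson for shares; they cover counting error only. A library at 0 took a floor of 3 counts in ratios.

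Members and lists were chosen with earlier results of these data known. Named members are the 3 highest and 3 lowest ratios per class and comparison, the 6 with most UMIs, families, transcription factors and sensors. Other genes come from fixed lists; the examples picked from these lists, the marker genes given as levels, the CD4 and CD8 values, the further Oas, Isg15-system and Parp values, the genes higher in both monocyte types and those in the promoter windows were picked after their values were seen. Counting of near-identical family members (Ifit, Oas, Mx) is not given in the sources used here and may split their reads. Alternatives covered barcode filters, gates, scaling, free RNA, thinning and fold. Some genes of the lists are not reported here. Ratio and interval steps were tested on simulated data. Software was Python 3.11.15, numpy 2.4.6, scipy 1.17.1, pandas 2.3.3 and matplotlib 3.10.9.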

Additional observations from a re-analysis of the deposited data

Results flagged for a closer look

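Some genes went opposite ways in different classes for SCI over Sham, with intervals that lay on either side of 0. Ifit3 had a log2 ratio of 1.30 in classical monocytes and -0.84 in T cells. Bst2 had 0.62 in classical monocytes, -0.59 in T cells and -0.70 in B cells. The difference between classes was not tested. The T cell ratio of Ifit3 was -0.15 without barcodes of 2 or more platelet markers.

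A signal was also seen in erythroid barcodes, outside the 5 leukocyte classes. Ifit1 was at 21.4 CPM in Sham erythroid barcodes, with 28.3 in SCI, 22.5 in MSC-i.v and 21.4 in MSC-i.t, against 1.47 to 3.17 CPM in T cells. Irf7 was at 8.12 CPM in Sham, 22.1 in SCI, 8.91 in MSC-i.v and 6.61 in MSC-i.t erythroid barcodes, above T cells in all 4 libraries. Erythroid barcodes held 66.5% of the Ifit1 UMIs and 25.0% of the Irf7 UMIs of gated leukocytes and erythroid barcodes together. The free RNA held Ifit1 at 1.2 to 8.68 CPM.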

How the results depend on the processing

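No paired analysis was possible because each group has 1 library. Of 792 single-member ratios under an alternative, 18 moved and 0 of those called past the fold changed sign. The alternatives left 151 of 166 member medians, 152 of 183 counts of members higher, 160 of 183 counts of members lower and 58 of 87 ratios of shares close to the reported value. The cause of the moves was not tested, apart from the stricter fold and UMI minimums, which by construction call or count fewer members. NK cells and both monocyte types have the fewest UMIs, down to 594734 in SCI nonclassical monocytes, which limits the members counted there. The 3-marker gate could not be applied to nonclassical monocytes, which have 2 gate markers. Counts of members called under an alternative are given, here and above, without the share of all genes under the same setting. They show how the counts moved and not an excess over all genes. Without barcodes of 2 or more platelet markers the number of members lower was 1 in T cells, 1 in classical monocytes for SCI over Sham. Members called higher then numbered 1 in classical monocytes for MSC-i.t over SCI and 1 in classical monocytes for MSC-i.v over SCI. With a 2-fold limit the number of members higher was 1 in T cells, 1 in B cells, 3 in NK cells, 8 in classical monocytes, 4 in nonclassical monocytes for SCI over Sham and 1 in T cells, 0 in B cells for MSC-i.v over SCI. Members called lower then numbered 0 in T cells, 0 in B cells for SCI over Sham, 2 in B cells, 5 in NK cells, 8 in classical monocytes, 10 in nonclassical monocytes for MSC-i.t over SCI and 0 in B cells, 3 in NK cells, 9 in classical monocytes, 13 in nonclassical monocytes for MSC-i.v over SCI. With free RNA subtracted the member median was 0.035 in B cells for SCI over Sham. The count of those higher was then 1 in NK cells, 1 in nonclassical monocytes for MSC-i.t over SCI and 0 in B cells for MSC-i.v over SCI. The count of those lower was then 3 in T cells for MSC-i.v over SCI. With the mean over cells the number of members lower was 1 in NK cells, 1 in classical monocytes for SCI over Sham. Called higher were then 1 in NK cells for MSC-i.t over SCI and 0 in B cells, 3 in NK cells for MSC-i.v over SCI. With no minimum of UMIs the number of members higher was 10 in NK cells for SCI over Sham, 1 in NK cells for MSC-i.t over SCI and 1 in NK cells for MSC-i.v over SCI. Called lower were then 1 in NK cells for SCI over Sham and 11 in NK cells for MSC-i.v over SCI. With at least 100 UMIs per gene the number of members higher was 1 in NK cells for SCI over Sham and 0 in B cells for MSC-i.v over SCI. Those past the fold downward were then 5 in NK cells for MSC-i.t over SCI and 3 in NK cells for MSC-i.v over SCI. With 3 gate markers the member median was 0.49 in classical monocytes for SCI over Sham. Those past the fold upward were then 1 in NK cells, 1 in classical monocytes for MSC-i.t over SCI and 0 in B cells for MSC-i.v over SCI. With ratios centred on all genes the member median was -0.077 in T cells for MSC-i.t over SCI and 0.39 in T cells, -0.25 in B cells, -0.72 in nonclassical monocytes for MSC-i.v over SCI. Higher members then numbered 1 in NK cells for MSC-i.t over SCI and 8 in T cells for MSC-i.v over SCI. Lower members then numbered 6 in NK cells for MSC-i.t over SCI and 4 in B cells for MSC-i.v over SCI. With Sham in place of SCI the member median for MSC-i.t was -0.17 in B cells, -0.11 in NK cells, -0.029 in classical and -0.25 in nonclassical monocytes. For MSC-i.v it was -0.26 in B cells, 0.00087 in NK cells, 0.037 in classical and -0.39 in nonclassical monocytes. The sign thus turned for MSC-i.v in classical monocytes, while its NK median was close to 0. With at least 1000 UMIs per barcode the number of members higher was 1 in NK cells for MSC-i.t over SCI. With at most 20% mitochondrial UMIs the number of members higher was 1 in NK cells for MSC-i.t over SCI. Without the 5% deepest barcodes the number of members higher was 1 in NK cells for MSC-i.t over SCI and 0 in B cells for MSC-i.v over SCI. Downward calls then came to 5 in NK cells for MSC-i.t over SCI. The log2 ratio of shares was then 0.022 in NK cells for SCI over Sham and -0.23 in NK cells for MSC-i.v over SCI. With classical monocytes that had a Csf1r UMI left out, which removed 86 of 89 SCI cells, the member median was -1.36 in classical monocytes for MSC-i.t over SCI. Without NK cells holding a basophil marker 1 NK member was higher for MSC-i.t over SCI, and without B cells of 2 or more plasma cell markers 0 B members were lower for SCI over Sham. These 3 alternatives and the one on platelet markers were chosen after seeing the data. With CPM taken without hemoglobin, mitochondrial and ribosomal genes the number of members higher was 5 in T cells for MSC-i.v over SCI. With cells not thinned the log2 ratio of shares was 0.14 in T cells, 0.11 in classical monocytes for SCI over Sham, -0.11 in T cells, -0.15 in NK cells, -0.17 in classical monocytes, -0.044 in nonclassical monocytes for MSC-i.t over SCI and -0.41 in T cells, -0.60 in B cells, -0.23 in classical monocytes for MSC-i.v over SCI. With 5 or more members required the log2 ratio of shares was -0.24 in T cells, 0.84 in NK cells, 0.29 in nonclassical monocytes for SCI over Sham, -0.73 in B cells, -1.18 in NK cells, -1.24 in classical monocytes, -0.59 in nonclassical monocytes for MSC-i.t over SCI and 0.80 in T cells, -0.50 in B cells, -1.10 in NK cells, -1.24 in classical monocytes, -0.79 in nonclassical monocytes for MSC-i.v over SCI. With cells thinned to 1000 UMIs the log2 ratio of shares was 1.02 in classical monocytes for SCI over Sham, -0.55 in B cells, -0.49 in nonclassical monocytes for MSC-i.t over SCI and 0.46 in T cells, -1.10 in classical monocytes, -0.91 in nonclassical monocytes for MSC-i.v over SCI.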
